A study of Mus musculus with 24 samples.

Results

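Cytosolic heat shock genes encode the chaperones and co-chaperones that keep proteins folded outside the organelles, together with the factor that switches them on. The 10 genes described here were chosen by name: the small heat shock proteins Hspb1 and Hspb8, the co-chaperone Bag3, the HSP70 genes Hspa1a, Hspa1b and Hspa8 with the HSP70 partners Dnajb1 and Hsph1, the chaperone Hsp90aa1, and the transcription factor Hsf1. All 10 were found by symbol among the 21965 genes of the count table, and all 10 were among the 17167 genes that reached a summed count of 10 over the 24 libraries.

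HSP70 proteins bind stretches of unfolded protein and release them in cycles driven by ATP, helped by J-domain proteins such as DNAJB1 and by exchange factors such as HSPH1 and BAG3. HSP90 takes over many clients for their last folding steps, and small heat shock proteins hold unfolding proteins until HSP70 can refold them. HSF1 is restrained by chaperones in unstressed cells, and once freed it forms trimers that bind heat shock elements in the promoters of these genes. Mature oligodendrocytes (OL) make large amounts of myelin membrane protein and are known for high constitutive expression of another small heat shock protein, Cryab.

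RNA was sequenced from the spinal cord of tamoxifen-induced OL-Ribotag mice carrying rpl22HA, in which an inducible Cre directed to OL adds an HA tag to the ribosomal protein RPL22. Ribosomes pulled down with anti-HA antibody gave the OL translatome, and part of the same lysate gave total RNA. Mice described as female, 10 to 12 weeks old per the labels, received a moderate contusion of 50 kdyn at the T9 level, and cord spanning the lesion was taken on day post-injury (dpi) 2, 10 or 42. Each of the 4 time groups, with uninjured naive mice as the control, held 3 pools of 2 mice, and each pool gave 1 OL and 1 total RNA library, so that every one of the 8 groups had n = 3. All groups, the naive one included, carried the transgenes and had received tamoxifen. By the study's account naive cord was collected together with the dpi 42 cord, so that the dpi 2 and dpi 10 groups also differ from naive in age and in the time since tamoxifen, which cannot be told apart from the injury, and the age it gives for naive mice is not that of the labels. This Cre is not limited to mature OL without exception: the study saw the tag in some cells without the OL antigen CC1, and such Cre lines can also be active in Schwann cells.

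Library totals ran from 25840127 to 32987841 counts. Scaling by trimmed mean of M-values (TMM) gave factors of 0.742 to 0.899 in OL libraries and 1.10 to 1.29 in those of total RNA, and levels below are TMM-scaled CPM, a gene's counts relative to the scaled total of its library, given for replicates 1, 2 and 3 in that order. The summed level of 7 OL markers (Mbp, Mag, Mog, Mobp, Cldn11, Ermn and Opalin) was 70576 to 95409 CPM in OL and 14820 to 18647 CPM in total RNA libraries, and no marker of any list used was at 0 in all libraries of a group. Several libraries stood apart. The summed level of 6 astrocyte markers (Gfap, Aqp4, Aldh1l1, Slc1a3, Gja1 and Aldoc) was 1725 to 8270.01 in naive OL, 2405 to 8577 on dpi 2, 2499.8 to 6658 on dpi 10 and 2590.1 to 13389.9 on dpi 42, against 4324 to 7933 in total RNA libraries. Naive replicate 3 also held 634 CPM of 4 Schwann cell markers in OL, against 1.60 and 1.73 in the other naive OL libraries. The labels of dpi 42 replicate 1 name different kinds of RNA in different fields for both of its libraries. The OL marker ranges above count each of them as the kind that its description names, and the OL and total RNA ranges did not overlap. Both libraries of dpi 2 replicate 2 held 2414 to 2604 counts on Y-linked genes, against at most 13 in each of the other 22. That pool therefore held male RNA, although the study describes its mice as female. Calls lost without all 5 OL libraries of high astrocyte sum, without dpi 42 replicate 1, without naive OL replicate 3 or without a library of dpi 2 replicate 2 are given both ways.

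Changes after spinal cord injury (SCI) were tested with edgeR's quasi-likelihood test and Benjamini-Hochberg adjustment over all 17167 genes, with q under 0.05 as the threshold. Log2 fold changes (Log2FC) are given ± SE. The 6 comparisons with naive cord share their naive libraries within each kind of RNA, so they are not independent of each other.

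In OL on dpi 2, Hspb1, Hspb8 and Bag3 rose, Hspa8, Hsp90aa1 and Hsf1 fell, and 4 genes did not pass the threshold. Of all genes tested, 18.4% were higher and 19.99% were lower in that comparison. On dpi 10 only Hspb1 rose and Hspa8, Hsph1 and Hsp90aa1 fell, beside 9.62% and 8.59% of all genes. On dpi 42 Hspb1 and Hspb8 rose and Hspa8 and Hsp90aa1 fell, beside 16.2% and 16.9%. The median Log2FC of the 10 genes in OL was -0.43 on dpi 2, -0.51 on dpi 10 and 0.02 on dpi 42, where the median of all genes was 0 each time. Total RNA had Hspb1 and Bag3 higher and Hsph1 and Hsp90aa1 lower on dpi 2 (all genes: 16.4% higher and 20.8% lower), Hspb1 higher and Hspa8, Hsph1 and Hsp90aa1 lower on dpi 10 (13.9% and 18.2%), and Hspb1 and Bag3 higher and Hsp90aa1 lower on dpi 42 (10.4% and 12.1%). These counts were not tested against the background shares. In bulk libraries such as these, fewer cells of a type and less RNA per cell cannot be told apart.

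**Figure D1:**
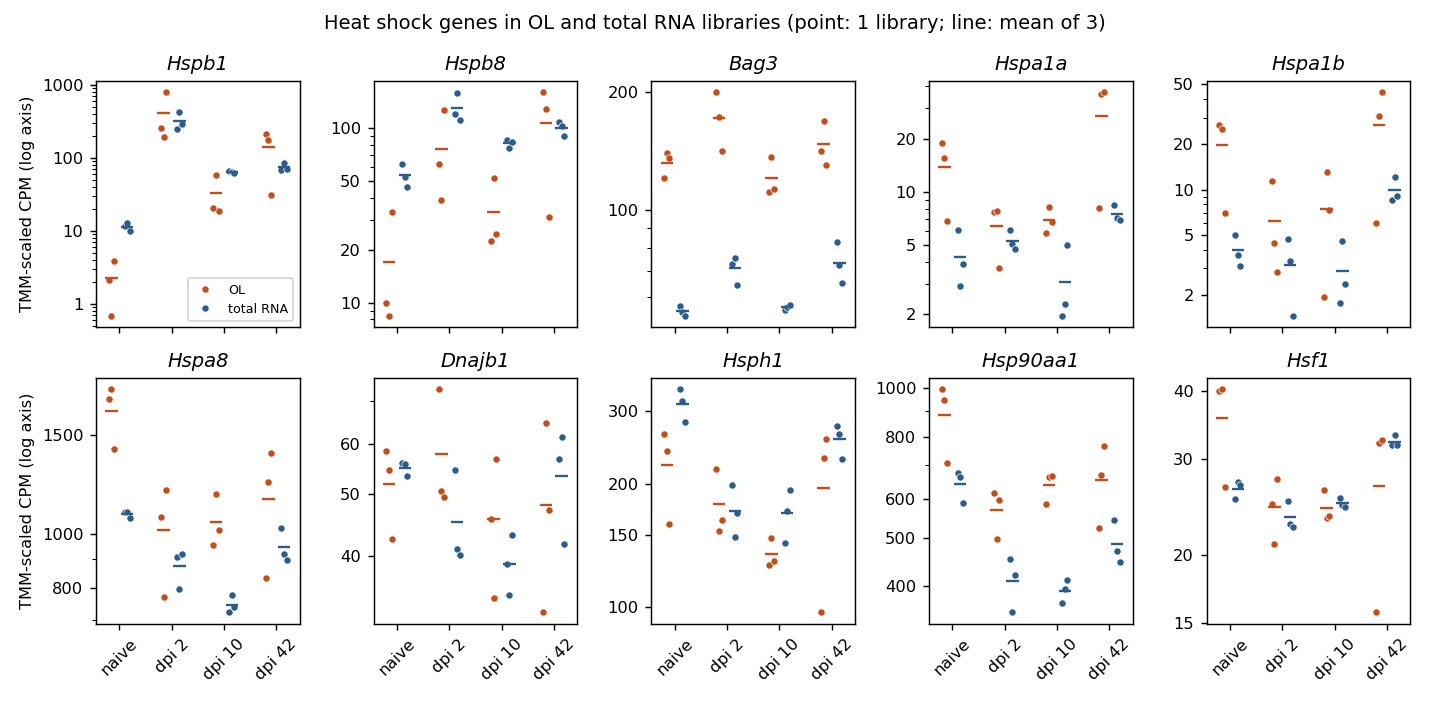
TMM-scaled CPM (log axis) of each of the 10 genes in naive cord and on dpi 2, 10 and 42, in OL and in total RNA libraries; each point is 1 library and each line the mean of 3. Hspb1 spans the widest range, from 0.677 CPM in a naive OL library to 796 CPM in a dpi 2 OL library, and Hspa8 is the highest of the 10 in naive OL.

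Levels set between genes need a correction for length, and per kilobase of exon the order in naive OL was Hspa8 (386 ± 49.5 CPM per kb, mean ± SD), Hsp90aa1 (225 ± 39.7), Bag3 (51.7 ± 3.95), Hsph1 (30.5 ± 7.59), Dnajb1 (16.2 ± 2.59), Hspb8 (8.80 ± 7.10), Hspa1b (7.04 ± 3.94), Hsf1 (5.03 ± 1.10), Hspa1a (4.65 ± 2.11) and Hspb1 (2.17 ± 1.57). The first 4 did not overlap with the gene next below them over the 3 libraries, while from Dnajb1 downwards every neighbour overlapped with the next. On dpi 2, Hspb1 went from the last place to the first, at 403 ± 321 CPM per kb, although its range overlapped with that of Hspa8 at 236 ± 50.99. In total RNA, Hspb1 moved from 11.02 ± 1.32 to 315 ± 93.2 CPM per kb and stood above Hspa8 (204 ± 15.8) with no overlap.

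A short and a long form of the heat shock element were looked for in the RefSeq promoter windows of the table used here (build GRCm38.p6, 250 bases before to 50 after a start site). The letters searched were GAANNTTC and its reverse complement TTCNNGAA for the short form, and GAANNTTCNNGAA and TTCNNGAANNTTC for the long form, which contains the short one. The table held a window for 7 of the 10 genes. The short form was in 16.97% of all genes with a window and in 6 of those 7 (Hspb1, Hspb8, Bag3, Hspa1a, Hspa1b and Hsph1, but not Dnajb1), and the long form was in 0.662% of all genes and in Hsph1 alone among the 7. A match is a description of letters in these windows and was not linked to any change. Windows are printed with each gene to show where the element lies, in lower case with the matched letters in capitals.

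Hspb1 (ENSMUSG00000004951, chr5:135887919-135889563, plus strand) encodes HSP27, a small heat shock protein that also binds the actin cytoskeleton. Its window at chr5:135887669-135887968, plus strand, held the short element at positions −117 and −97 from the start site.
Hspb1: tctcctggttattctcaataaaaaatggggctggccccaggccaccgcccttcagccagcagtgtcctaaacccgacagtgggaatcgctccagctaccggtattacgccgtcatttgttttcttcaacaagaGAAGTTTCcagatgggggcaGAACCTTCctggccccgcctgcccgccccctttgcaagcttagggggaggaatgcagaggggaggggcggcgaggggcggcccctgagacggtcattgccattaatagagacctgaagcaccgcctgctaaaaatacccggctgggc
In OL, Hspb1 was at 2.14, 0.677 and 3.90 CPM in naive cord and at 259, 192 and 796 CPM on dpi 2. It was at 20.4, 58.9 and 18.6 CPM on dpi 10 and at 216, 176 and 30.5 CPM on dpi 42. Every library after SCI lay above every naive library, and within each time group the libraries spread several-fold. The Log2FC against naive was 7.52 ± 0.78 (q = 1.77e-07) on dpi 2, a 183-fold rise, 3.85 ± 0.69 (q = 0.000447) on dpi 10, and 5.96 ± 0.73 (q = 4.26e-06) on dpi 42. The level on dpi 10 was lower than on dpi 2 (Log2FC -3.67 ± 0.63, q = 0.000212), again with no overlap, and the difference of dpi 42 from dpi 2 did not pass the threshold (Log2FC -1.56 ± 0.58, q = 0.0669).

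In total RNA, Hspb1 went from 11.5, 12.7 and 9.95 CPM in naive cord to 249, 433 and 291 CPM on dpi 2. It was at 66.8, 63.9 and 61.9 CPM on dpi 10 and at 68.6, 84.2 and 71.3 CPM on dpi 42. No library after SCI overlapped with the naive ones, and the replicates lay much closer together than in OL. The Log2FC was 4.83 ± 0.67 (q = 7.86e-06) on dpi 2, 2.50 ± 0.61 (q = 0.00306) on dpi 10 and 2.72 ± 0.61 (q = 0.00271) on dpi 42, and the falls from dpi 2 to dpi 10 (Log2FC -2.34 ± 0.59, q = 0.0161) and from dpi 2 to dpi 42 (Log2FC -2.12 ± 0.59, q = 0.0238) passed the threshold too. Each of these falls held in 2 of 6 fits without 1 library. That to dpi 10 was lost without dpi 2 replicate 2 (Log2FC -2.07, q = 0.0736) and without each dpi 10 library (q = 0.0648, 0.0684 and 0.0685), and that to dpi 42 without dpi 2 replicate 2 (Log2FC -1.85, q = 0.104) and without each dpi 42 library (q = 0.0852, 0.0664 and 0.0801). Without both dpi 42 replicate 1 libraries the latter was at -2.06 (q = 0.0769). Of the 50-base windows of its transcripts, 50.1% also occur in transcripts of other genes, mostly the pseudogene Hsp25-ps1, so part of the reads may have been counted elsewhere or not at all.

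Hspb8 (ENSMUSG00000041548, chr5:116408491-116422864, minus strand) encodes HSP22, which pairs with BAG3 in the autophagy of misfolded proteins. Its window at chr5:116422815-116423114, minus strand, held 1 short element just after the start site, at position 2.
Hspb8: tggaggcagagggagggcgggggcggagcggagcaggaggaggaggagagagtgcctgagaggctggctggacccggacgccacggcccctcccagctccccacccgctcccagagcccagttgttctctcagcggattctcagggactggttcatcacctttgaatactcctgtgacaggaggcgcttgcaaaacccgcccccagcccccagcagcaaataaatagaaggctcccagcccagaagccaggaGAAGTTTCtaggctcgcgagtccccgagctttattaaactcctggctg
Hspb8 was at 9.96, 8.38 and 33.1 CPM in naive OL and at 62.6, 39.01 and 128 CPM on dpi 2, with no overlap. It was at 22.7, 52.01 and 24.7 CPM on dpi 10 and at 161, 129 and 31.2 CPM on dpi 42. In both of those groups at least 1 library lay below naive replicate 3, the highest naive one. The Log2FC was 2.15 ± 0.53 (q = 0.00265) on dpi 2 and 2.64 ± 0.54 (q = 0.000691) on dpi 42, both past the threshold, and 0.95 ± 0.52 (q = 0.231) on dpi 10, which was not. In total RNA, Hspb8 was at 62.9, 52.8 and 46.1 CPM in naive cord and at 121, 160.4 and 112 CPM on dpi 2. Although these ranges were apart, the Log2FC of 1.28 ± 0.51 (q = 0.0532) did not pass the threshold, nor did those of dpi 10 (Log2FC 0.61 ± 0.50, q = 0.392) and dpi 42 (Log2FC 0.90 ± 0.51, q = 0.224).

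Astrocyte markers moved with both small heat shock genes among the OL libraries. In 4 of 4 OL groups the library with the highest astrocyte marker sum also had the highest Hspb1 and the highest Hspb8. These were naive replicate 3, dpi 2 replicate 3, dpi 10 replicate 2 and dpi 42 replicate 1, with dpi 42 replicate 2 close behind. None of the 6 astrocyte markers was higher in OL on dpi 2 or dpi 10 than in naive OL at q under 0.05, and 1 was on dpi 42. The analysis was repeated without those 5 libraries, whose astrocyte sum was over 2 times the lowest of their group, an alternative chosen after seeing the data. It leaves 1 OL library on dpi 42, which is assumed to vary like the other groups, and 2 in each of those. The Log2FC of Hspb1 was then 7.26 on dpi 2 (q = 3.47e-12) and 3.78 on dpi 10 (q = 7.04e-08). That of Hspb8 was 2.41 on dpi 2 (q = 2.97e-08) and 1.37 on dpi 10 (q = 7.77e-05), so that the dpi 10 rise passed the threshold there. The libraries left out include the highest of each group in both genes. That choice itself narrows the spread, so these q values are no added support. On dpi 42 the 1 library left gave 4.41 for Hspb1 and 1.75 for Hspb8, and its Hspb8 level of 31.2 CPM lay below that of the removed naive replicate 3 (33.1 CPM). Leaving these libraries out cannot test the part of astrocytes. The dpi 2 OL libraries kept still held 3843 and 2405 CPM of astrocyte markers, against 1984 and 1725 CPM in the naive ones kept. The part of astrocytes and of other cell types in the levels was not tested. The summed level of 8 myeloid markers rose in OL from 10.7 to 16.7 CPM in naive cord to 70.3 to 91.6, 223 to 256 and 135 to 231 CPM on dpi 2, 10 and 42, and that of 4 fibroblast markers from 47.5 to 77.8 to 188 to 239, 419.6 to 479 and 189 to 225 CPM. All 8 myeloid and all 4 fibroblast markers passed the threshold at each time. The summed level of 4 Schwann cell markers in OL was 1.60, 1.73 and 634 CPM in naive cord. It was 206 to 656, 852 to 1519 and 1196 to 1389 CPM on dpi 2, 10 and 42. Of the 4 markers, 0, 1 and 1 were higher than in naive OL at q under 0.05, in tests that include the naive library at 634 CPM. Of 7 endothelial and pericyte markers, whose sum was 8.12 to 17.3 CPM in naive OL and 17.99 to 36.9, 17.6 to 34.1 and 25.2 to 31.8 CPM after SCI, 5, 3 and 4 were higher.

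**Figure D2:**
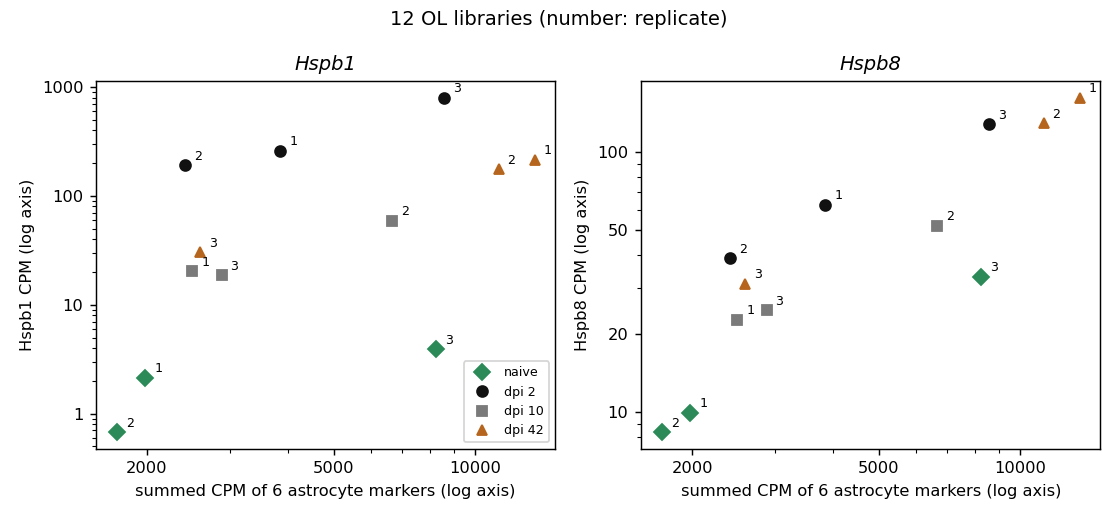
Hspb1 (left) and Hspb8 (right) CPM against the summed CPM of 6 astrocyte markers in the 12 OL libraries, both on log axes; colours and symbols mark the time group and numbers the replicate. Within each group the library with the highest marker sum has the highest level of both genes, and for Hspb1 all libraries after SCI lie above all naive ones at any marker sum.

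Bag3 (ENSMUSG00000030847, chr7:128523616-128546981, plus strand) encodes the exchange factor that links HSP70 to small heat shock proteins. The window at chr7:128523333-128523632, plus strand, ends in 1 short element at position 42.
Bag3: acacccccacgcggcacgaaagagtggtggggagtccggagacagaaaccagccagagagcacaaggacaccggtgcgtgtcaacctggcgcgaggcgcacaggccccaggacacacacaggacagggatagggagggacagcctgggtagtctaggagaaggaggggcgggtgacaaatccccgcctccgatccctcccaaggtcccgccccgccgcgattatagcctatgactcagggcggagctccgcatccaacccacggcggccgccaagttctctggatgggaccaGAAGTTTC
Bag3 was at 121, 140.1 and 136 CPM in naive OL, at 200.3, 173 and 142 CPM on dpi 2, at 111, 137 and 114 CPM on dpi 10 and at 142, 169 and 131 CPM on dpi 42. The dpi 2 libraries all lay above the naive ones, by a margin of 142 against 140.1 CPM at the nearest pair, and the later groups overlapped with naive. The Log2FC on dpi 2 was 0.38 ± 0.12 (q = 0.0199), but this rise kept its call in only 1 of 6 fits that left out 1 library, with Log2FC between 0.18 and 0.44. It was lost, among others, without dpi 2 OL replicate 2 (Log2FC 0.32, q = 0.0834) and without naive OL replicate 3 (Log2FC 0.33, q = 0.065). From dpi 2 to dpi 10 it fell at a Log2FC of -0.51 ± 0.12 (q = 0.00456), a call lost without dpi 2 replicate 1 (Log2FC -0.31, q = 0.0774) or dpi 10 replicate 1 (Log2FC -0.39, q = 0.0564). In total RNA, Bag3 was at 56.7, 54.97 and 53.6 CPM in naive cord, at 72.7, 75.6 and 64.4 CPM on dpi 2 and at 82.7, 72.4 and 65.1 CPM on dpi 42, with both of these groups above naive and no overlap. The Log2FC was 0.36 ± 0.12 (q = 0.0247) on dpi 2 and 0.41 ± 0.12 (q = 0.0192) on dpi 42. These rises kept their call in 2 and in 3 of 6 fits without 1 library. The dpi 2 rise was lost without dpi 2 replicate 2 (Log2FC 0.32, q = 0.0965), and the dpi 42 rise was lost without dpi 42 replicate 1 (Log2FC 0.32, q = 0.100).

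Hspa1a (ENSMUSG00000091971, chr17:34969190-34972156, minus strand) and Hspa1b (ENSMUSG00000090877, chr17:34956436-34959238, minus strand) encode the stress-inducible HSP70 and are near-identical neighbours. Their promoter windows (chr17:34972107-34972406 and chr17:34959189-34959488, minus strand) differ at 4 of 300 bases and hold the same short element at position −104, so that of Hspa1a stands for both.
Hspa1a: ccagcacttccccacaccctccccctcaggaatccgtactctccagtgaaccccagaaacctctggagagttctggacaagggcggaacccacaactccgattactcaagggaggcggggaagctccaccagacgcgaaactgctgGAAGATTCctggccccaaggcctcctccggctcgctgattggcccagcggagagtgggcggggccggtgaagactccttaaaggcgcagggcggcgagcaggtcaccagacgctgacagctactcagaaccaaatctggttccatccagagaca
Of the 50-base windows of their transcripts, 66.3% in Hspa1a and 62.3% in Hspa1b also occur elsewhere, mostly in each other, and exons of Hspa1a overlap the gene Gm20481 on the other strand. The split of reads between the pair is therefore uncertain, and their sum is given beside the dpi 2 result.

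Both were expressed at a low level. In naive OL, Hspa1a was at 18.95, 15.6 and 6.85 CPM and Hspa1b at 26.7, 25.5 and 6.9997 CPM. On dpi 2 they were at 7.67, 7.78 and 3.67 CPM and 11.4, 4.46 and 2.83 CPM, and on dpi 10 at 5.83, 8.18 and 6.74 CPM and 1.94, 13.01 and 7.35 CPM. In both genes naive replicate 3 lay far below the other naive libraries, and it overlapped with the dpi 2 libraries. The Log2FC on dpi 2 was -1.11 ± 0.48 (q = 0.0710) for Hspa1a and -1.66 ± 0.69 (q = 0.0646) for Hspa1b, neither past the threshold. Summed, the pair was at 45.7, 41.1 and 13.8 CPM in naive OL and 19.05, 12.2 and 6.50 CPM on dpi 2, and as a sum it fell by 1.41 on the log2 scale (q = 0.0382). Without the 5 OL libraries with high astrocyte sums, naive replicate 3 among them, the falls on dpi 2 passed it for Hspa1a (-1.22, q = 0.0101) and Hspa1b (-1.77, q = 0.0121), as did those on dpi 10 (-1.46, q = 0.00600, and -2.48, q = 0.00265). That fit, chosen after seeing the data, leaves out the lowest naive library and the highest dpi 10 library of both genes. Its q values are therefore no added support. With all libraries the dpi 10 values were -0.996 ± 0.47 (q = 0.162) and -1.41 ± 0.69 (q = 0.175).

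On dpi 42 the OL level of Hspa1a was 8.07, 36.1 and 37.1 CPM and that of Hspa1b 5.98, 30.8 and 44.4 CPM. Replicates 2 and 3 were the highest of all OL libraries for both genes, while replicate 1, whose labels conflict, lay at the dpi 2 and dpi 10 level. Against dpi 2, both rose, with a Log2FC of 2.09 ± 0.49 (q = 0.00471) for Hspa1a and 2.12 ± 0.70 (q = 0.0411) for Hspa1b, in a comparison in which 8.91% of all genes were higher and 8.66% lower. The call held in 6 of 6 fits without 1 library for Hspa1a, and in 2 of 6 for Hspa1b, which overlapped with dpi 2 through replicate 1 and was lost without dpi 2 replicate 2 (Log2FC 1.94, q = 0.127). In a fit over the OL libraries of dpi 2 and dpi 42 alone, neither rise passed the threshold (Log2FC 2.07, q = 0.0572 for Hspa1a and Log2FC 2.10, q = 0.129 for Hspa1b), whereas the summed pair passed it with all libraries (2.10, q = 0.00876). Against naive OL, neither passed the threshold (Log2FC 0.97 ± 0.47, q = 0.122 and Log2FC 0.46 ± 0.67, q = 0.675). Without dpi 42 replicate 1 the rise of Hspa1a against naive did (Log2FC 1.41, q = 0.0189).

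In total RNA, Hspa1a stayed between 1.96 and 8.39 CPM and Hspa1b between 1.45 and 12.2 CPM over all 12 libraries. On dpi 42 the total RNA libraries (8.39, 7.07 and 6.92 CPM for Hspa1a and 8.51, 12.2 and 9.11 CPM for Hspa1b) all lay above the naive ones (6.03, 2.90 and 3.87 and 5.02, 3.71 and 3.14 CPM). The Log2FC of 0.81 ± 0.48 (q = 0.251) and 1.33 ± 0.69 (q = 0.188) did not pass the threshold. Against dpi 2 in total RNA only Hspb1 was called lower and no gene of the 10 higher on dpi 42, beside 5.59% lower and 5.17% higher among all genes. The same held on dpi 10 against dpi 2 (4.53% and 3.31%). In OL, Hspb1 and Bag3 were the genes called lower on dpi 10 than on dpi 2 and none was called higher, beside 10.6% and 11.7%.

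Hspa8 (ENSMUSG00000015656, chr9:40800984-40810087, plus strand) encodes HSC70, the constitutive HSP70. It was at 1742, 1817 and 1416 CPM in naive OL and at 1073, 772 and 1199 CPM on dpi 2. On dpi 10 it was at 956, 1177 and 1015 CPM and on dpi 42 at 834, 1235 and 1394 CPM. Every OL library after SCI lay below every naive one. The Log2FC was -0.71 ± 0.16 (q = 0.00122) on dpi 2, -0.66 ± 0.16 (q = 0.00581) on dpi 10 and -0.52 ± 0.16 (q = 0.0147) on dpi 42. The first 2 held in 6 of 6 fits without 1 library, and the last was lost without dpi 42 replicate 1 of both kinds (Log2FC -0.33, q = 0.106) and without the 5 OL libraries with high astrocyte sums (Log2FC -0.37, q = 0.0853). In total RNA, Hspa8 went from 1096, 1092 and 1065 CPM in naive cord to 723, 778 and 739.7 CPM on dpi 10 (Log2FC -0.54 ± 0.16, q = 0.0123). The total RNA libraries of dpi 2 and dpi 42 also lay below naive without overlap, but their Log2FC of -0.31 ± 0.16 (q = 0.139) and -0.20 ± 0.16 (q = 0.418) did not pass the threshold. Of its 50-base windows, 39.4% occur in other transcripts, mostly the pseudogene Gm15459.

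Hsp90aa1 (ENSMUSG00000021270, chr12:110690605-110702728, minus strand), the inducible HSP90, fell in every comparison with naive. In OL it was at 999, 949.7 and 708 CPM in naive cord, 615, 497 and 596 CPM on dpi 2, 585, 664 and 666 CPM on dpi 10 and 524, 669.7 and 767 CPM on dpi 42. Naive replicate 3 was the lowest naive library, and only dpi 42 replicate 3 lay above it. The OL Log2FC was -0.64 ± 0.14 (q = 0.00109) on dpi 2, -0.47 ± 0.14 (q = 0.0229) on dpi 10 and -0.44 ± 0.14 (q = 0.0203) on dpi 42. The calls held in 6, 1 and 3 of 6 fits without 1 library, and that of dpi 42 was lost without dpi 42 replicate 1 (Log2FC -0.30, q = 0.127) and without the 5 OL libraries with high astrocyte sums (Log2FC -0.36, q = 0.108). In total RNA it was at 675, 664 and 587 CPM in naive cord, 453, 354 and 421 CPM on dpi 2, 369, 395 and 411 CPM on dpi 10 and 543, 471 and 447 CPM on dpi 42. No total RNA library after SCI reached the naive range. The Log2FC was -0.65 ± 0.14 (q = 0.000945), -0.71 ± 0.14 (q = 0.000506) and -0.40 ± 0.14 (q = 0.0467) in turn. The last held in 1 of 6 fits without 1 library. Pseudogenes such as Gm12346 share 47.5% of its 50-base windows.

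Hsph1 (ENSMUSG00000029657, chr5:149614287-149636376, minus strand) encodes HSP105, an exchange factor of HSP70. Its window at chr5:149636266-149636565, minus strand, held the long element, 13 bases from position 15, beside a further short one at position −54. A second listed start site has a window that overlaps this one (chr5:149636287-149636586) and holds the same elements, the long one at position 36 and the short one at −33.
Hsph1: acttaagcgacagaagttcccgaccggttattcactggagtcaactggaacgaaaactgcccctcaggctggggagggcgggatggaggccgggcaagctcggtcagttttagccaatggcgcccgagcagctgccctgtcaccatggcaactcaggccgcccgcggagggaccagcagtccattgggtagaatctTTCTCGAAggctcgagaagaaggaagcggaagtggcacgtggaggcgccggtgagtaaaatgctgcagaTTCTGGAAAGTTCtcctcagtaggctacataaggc
In total RNA, Hsph1 was at 341, 318 and 282 CPM in naive cord, 198, 148 and 169.95 CPM on dpi 2, 143, 172 and 193 CPM on dpi 10 and 276, 265 and 230.1 CPM on dpi 42. All libraries after SCI lay below all naive ones, most so on dpi 2 and dpi 10. The Log2FC was -0.87 ± 0.25 (q = 0.00815) on dpi 2 and -0.89 ± 0.25 (q = 0.00822) on dpi 10, each kept in 6 of 6 fits without 1 library, and the dpi 42 value of -0.29 ± 0.25 (q = 0.447) did not pass the threshold. In OL it was at 265, 240.1 and 159 CPM in naive cord, 217, 153 and 163 CPM on dpi 2, 127, 148 and 129 CPM on dpi 10 and 97.1, 231 and 257 CPM on dpi 42. Only the dpi 10 libraries were all below naive. That Log2FC of -0.72 ± 0.25 (q = 0.0472) was close to the threshold and held in 1 of 6 fits without 1 library. Neither dpi 2 (Log2FC -0.32 ± 0.25, q = 0.341) nor dpi 42 (Log2FC -0.18 ± 0.25, q = 0.634) passed it.

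Neuron markers fell over the same comparisons in total RNA: the summed level of 7 of them was 8015 to 8468 CPM in naive cord, 3521 to 4479 on dpi 2, 3541 to 4031 on dpi 10 and 4326 to 6549.8 on dpi 42, with 6, 7 and 5 of the 7 lower at q under 0.05. In OL libraries the same sum was far lower, at 360.4 to 459 CPM in naive cord and 276 to 447, 266 to 341 and 239 to 365 CPM on dpi 2, 10 and 42, with 4, 5 and 4 of the 7 lower and 2, 1 and 0 higher. The part of neuron RNA in the falls of Hsph1, Hsp90aa1 and Hspa8 was not tested.

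Dnajb1 (ENSMUSG00000005483, chr8:83608193-83612653, plus strand) encodes HSP40, the J-domain protein that loads clients onto HSP70. In OL it was at 58.5, 54.6 and 42.6 CPM in naive cord, 73.2, 50.7 and 49.5 CPM on dpi 2, 45.8, 34.5 and 56.8 CPM on dpi 10 and 32.7, 64.6 and 47.3 CPM on dpi 42. All groups overlapped, with Log2FC of 0.15 ± 0.22 (q = 0.647), -0.18 ± 0.22 (q = 0.651) and -0.11 ± 0.22 (q = 0.798) in turn. In total RNA the dpi 10 libraries (38.9, 34.7 and 43.2 CPM) lay below the naive ones (55.97, 55.8 and 53.4 CPM), at a Log2FC of -0.50 ± 0.22 (q = 0.0955) that did not pass the threshold. Among the 10 genes it was the one with no call in any of the 17 comparisons.

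Hsf1 (ENSMUSG00000022556, chr15:76477422-76501913, plus strand), the transcription factor that binds heat shock elements, is known to be controlled mainly at the level of its protein. In OL it was at 40.003, 40.4 and 26.7 CPM in naive cord, 24.8, 20.98 and 27.6 CPM on dpi 2, 26.3, 23.4 and 23.6 CPM on dpi 10 and 15.7, 32.1 and 32.5 CPM on dpi 42. Naive replicate 3 lay well below the other naive libraries and overlapped with dpi 2, and on dpi 42 replicate 1 was the lowest of all 12 OL libraries. The Log2FC on dpi 2 was -0.54 ± 0.20 (q = 0.0346) and was kept in 3 of 6 fits without 1 library, but not without dpi 2 replicate 2 (Log2FC -0.50, q = 0.0921). On dpi 10 the groups did not overlap and the Log2FC was -0.55 ± 0.20 (q = 0.0617), and on dpi 42 it was -0.41 ± 0.20 (q = 0.118). The dpi 10 value passed the threshold without the 5 OL libraries with high astrocyte sums (-0.69, q = 0.000649). That fit, chosen after seeing the data, leaves out naive replicate 3, the lowest naive library, so this q value is no added support. In total RNA, Hsf1 was within 22.5 to 33.2 CPM in all libraries and no comparison with naive passed the threshold, although on dpi 42 all 3 libraries (31.8, 33.2 and 31.9 CPM) lay above naive (25.3, 27.2 and 26.9 CPM, Log2FC 0.29 ± 0.20, q = 0.328).

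Some of these calls rested on how the libraries were fitted or scaled. In fits over only the libraries of the groups compared, the OL calls were lost for Bag3 (Log2FC 0.44, q = 0.0748) and Hsf1 (Log2FC -0.47, q = 0.125) on dpi 2, for Hsp90aa1 on dpi 10 (Log2FC -0.44, q = 0.0692), and for Hspa8 (Log2FC -0.48, q = 0.132) and Hsp90aa1 (Log2FC -0.40, q = 0.162) on dpi 42. With library sizes alone, those of Hsf1 on dpi 2 (q = 0.144), Hsph1 (q = 0.0955) and Hsp90aa1 (q = 0.0757) on dpi 10 and Hspa8 (q = 0.0644) and Hsp90aa1 (q = 0.0932) on dpi 42 were lost in OL, as were those of Hspa8 on dpi 10 (q = 0.0935) and Hsp90aa1 on dpi 42 (q = 0.168) in total RNA. The called rises of Hspb1 and Hspb8 in OL and the falls of Hspa8 and Hsp90aa1 in OL on dpi 2 passed the threshold under both. Calls were gained too: over the 170 results of the 10 genes, fits over only the libraries compared gained 19 and lost 9. The share of all genes in those fits is not reported here. For each gene the main fit shares its estimate of the spread over all OL and total RNA groups. A total RNA result short of the threshold there does not show that the level was unchanged.

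**Figure D3:**
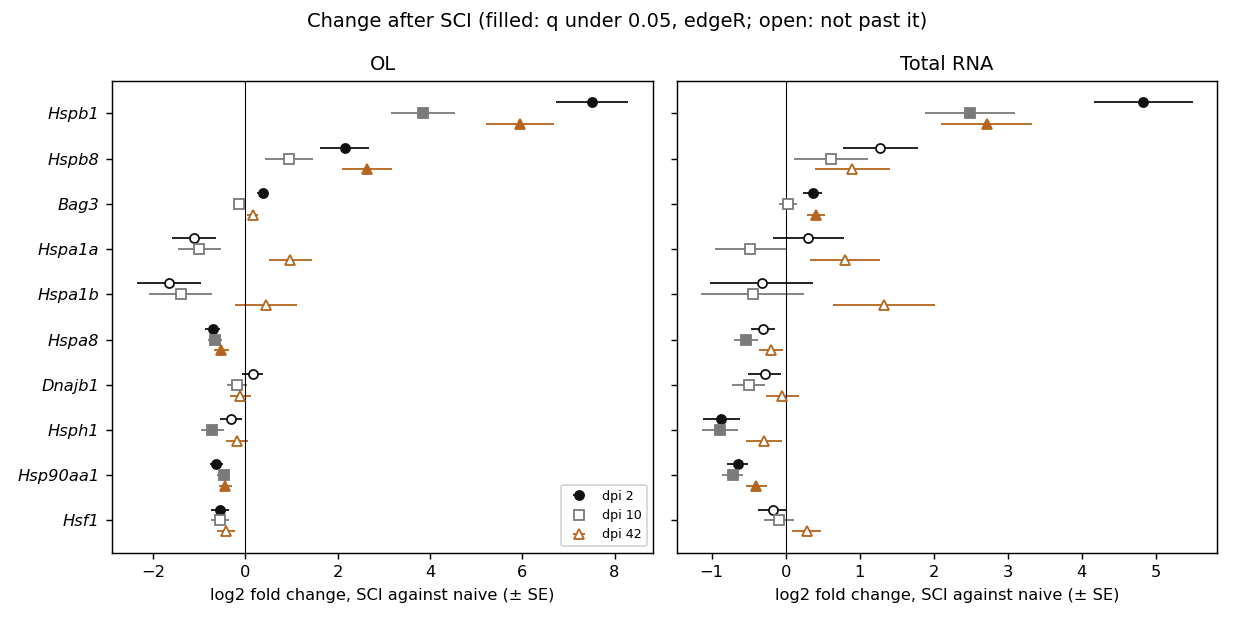
Log2 fold change against naive ± SE for the 10 genes on dpi 2, 10 and 42, in OL (one panel) and in total RNA (the other); filled symbols passed q under 0.05 in edgeR and open ones did not. Hspb1 lies far to the right at each time in both, and Hsp90aa1 is the gene with a filled symbol to the left of 0 at each time in both.

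OL enrichment, the Log2FC of OL over total RNA of the same tissue pools, was fitted with the pool as a block. Under TMM scaling 5 of the 10 genes were enriched and 2 depleted in naive cord, beside 24.4% and 29.1% of all genes, whose median was -0.31. On dpi 2 this was 2 and 0 genes (all genes: 24.3% and 26.9%), on dpi 10 it was 4 and 1 (24.7% and 26.4%), and on dpi 42 it was 3 and 0 (24.4% and 26.8%). Bag3 was OL-enriched at all 4 times, with a Log2FC of 1.26 ± 0.11 (q = 3.74e-07) in naive cord, 1.27 ± 0.11 (q = 5.44e-07) on dpi 2, 1.09 ± 0.11 (q = 1.88e-06) on dpi 10 and 1.002 ± 0.11 (q = 4.04e-06) on dpi 42. Its OL libraries never overlapped with the total RNA libraries of the same time, and the calls held in every fit without 1 pool.

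Under the same scaling, Hsp90aa1 was called enriched at all 4 times, with a Log2FC of 0.45 ± 0.12 (q = 0.00685), 0.48 ± 0.12 (q = 0.00536), 0.70 ± 0.12 (q = 0.000317) and 0.41 ± 0.12 (q = 0.0131) in the order naive, dpi 2, 10 and 42, and Hspa8 in naive cord (Log2FC 0.61 ± 0.15, q = 0.00331) and on dpi 10 (Log2FC 0.49 ± 0.15, q = 0.0137). Of these 6 calls, none passed the threshold with library sizes alone, and 4 changed direction. With library sizes alone the median of all genes went from -0.31 to -0.82 in naive cord, from -0.24 to -0.80 on dpi 2, from -0.24 to -0.82 on dpi 10 and from -0.24 to -0.74 on dpi 42, a scale that applies to every gene of a library alike. Hspa8 in naive cord and Hsp90aa1 on dpi 10 kept their direction (0.09 and 0.13). Hsp90aa1 was at -0.06 in naive cord, -0.09 on dpi 2 and -0.09 on dpi 42, and Hspa8 at -0.09 on dpi 10. Relative to the median of all genes both genes stayed on the enriched side. Without 1 pool, the call of Hsp90aa1 was lost in naive cord without replicate 1 (q = 0.0577) and on dpi 42 without replicate 2 or 3 (q = 0.0817 and 0.154), and that of Hspa8 on dpi 10 without replicate 2 or 3 (q = 0.0845 and 0.0527). The dpi 42 call of Hsp90aa1 was also lost in a fit over the dpi 42 libraries alone (q = 0.144).

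Hspa1b was enriched in naive cord (Log2FC 2.13 ± 0.49, q = 0.00244). Hspa1a was enriched in naive cord (Log2FC 1.63 ± 0.48, q = 0.0113), on dpi 10 (Log2FC 1.28 ± 0.48, q = 0.0406) and on dpi 42 (Log2FC 1.62 ± 0.50, q = 0.0155), with overlap between OL and total RNA libraries on dpi 42 through replicate 1. Each of these 3 calls of Hspa1a held in 1 of 3 fits without 1 pool: it was lost in naive cord without replicate 1 or 2 (q = 0.0532 and 0.0999), on dpi 10 without replicate 1 or 2 (Log2FC 1.13 and 0.99) and on dpi 42 without replicate 2 or 3 (Log2FC 1.19 and 1.15). The dpi 42 call was also lost in a fit over the dpi 42 libraries alone (q = 0.0532), and with library sizes alone all 3 were lost (q = 0.0583, 0.223 and 0.0713). Neither was called enriched on dpi 2, where Hspa1a was at 0.21 ± 0.47 (q = 0.743) and Hspa1b at 0.89 ± 0.48 (q = 0.144). Hspb1 and Hspb8 were depleted from naive OL, with a Log2FC of -2.45 ± 0.70 (q = 0.00937) for Hspb1 and -1.93 ± 0.55 (q = 0.00916) for Hspb8, with no overlap. The Hspb1 depletion was lost without naive replicate 2 (Log2FC -1.85, q = 0.0701), and that of Hspb8 without naive replicate 1 or 2 (Log2FC -1.53, q = 0.0818 and -1.54, q = 0.0798). After SCI, Hspb8 was depleted on dpi 10 (Log2FC -1.42 ± 0.52, q = 0.0350), a call lost without replicate 1 or 3 (Log2FC -1.17, q = 0.18 and -1.24, q = 0.157), and Hspb1 was not called different from total RNA at any time (Log2FC 0.11 ± 0.60, q = 0.912 on dpi 2, Log2FC -1.19 ± 0.59, q = 0.115 on dpi 10, Log2FC 0.55 ± 0.61, q = 0.484 on dpi 42). Without the 5 OL libraries with high astrocyte sums, Hspb8 was depleted on dpi 2 (Log2FC -1.44, q = 6.00e-05). That choice, made after seeing the data, removes the dpi 2 OL library with the highest Hspb8, so this q value is no added support. On dpi 42 a single pool is left in that fit, and it gave an enrichment of -1.23 for Hspb1, where the value with all libraries was positive, and -1.54 for Hspb8.

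**Figure D4:**
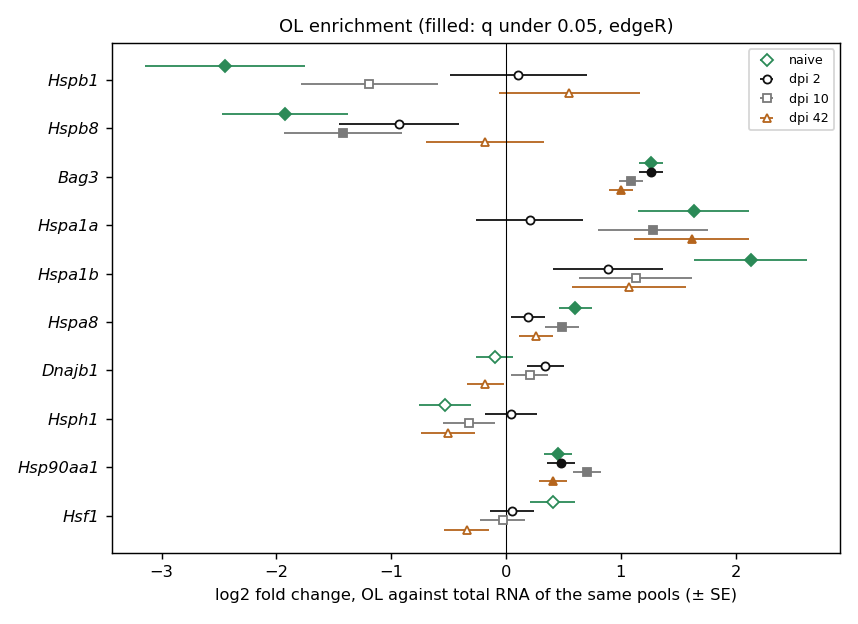
OL enrichment (Log2FC of OL over total RNA of the same pools ± SE) of the 10 genes in naive cord and on dpi 2, 10 and 42; filled symbols passed q under 0.05 in edgeR. Bag3 sits near 1 at all 4 times, and Hspb1 and Hspb8 lie furthest to the left in naive cord.

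Whether enrichment differed after SCI from that in naive cord was tested by the interaction, the differential OL enrichment. None of the 10 genes passed q under 0.05 on dpi 2, 10 or 42 in edgeR. Of all genes, 7.50% were higher and 5.81% lower on dpi 2. The shares were 4.49% and 3.14% for dpi 10 and 4.34% and 3.51% for dpi 42. At an unadjusted p under 0.05 there were 1, 0 and 3 of the 10 genes, and DESeq2 called 1, 0 and 1. The gene called by DESeq2 was Hspb1. Its differential enrichment was 2.55 ± 0.92 (q = 0.0924) on dpi 2 and 2.996 ± 0.93 (q = 0.0722) on dpi 42 in edgeR, and 2.73 (q = 0.0276) and 3.14 (q = 0.0126) in DESeq2. Without the tissue pool as a replicate block it passed in edgeR as well, at 2.68 (q = 0.0447) and 3.24 (q = 0.0269). Without the 5 OL libraries with high astrocyte sums, 5 of the 10 genes passed on dpi 2: Hspb1 (2.62, q = 0.00347), Hspb8 (1.24, q = 0.0110) and Hsph1 (0.55, q = 0.0154) upwards, and Hspa8 (-0.54, q = 0.00582) and Hspa1b (-1.66, q = 0.0457) downwards. These 5 q values come from a choice made after seeing the data, so they are no added support. The shares of all genes above belong to the edgeR q values with all libraries. Matching shares for unadjusted p, DESeq2 and the fit without those libraries are not reported here. Those counts can therefore not be read as particular to the 10 genes. On dpi 42 the other values at an unadjusted p under 0.05 were 1.74 ± 0.75 (q = 0.199) for Hspb8 and -0.75 ± 0.28 (q = 0.130) for Hsf1.

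Other genes of the chaperone network were counted from compiled lists. Their counts stand beside the shares of all genes, which in OL were 18.4% higher and 19.99% lower on dpi 2. They were 9.62% and 8.59% by dpi 10, then 16.2% and 16.9% by dpi 42. For total RNA these shares were 16.4% and 20.8%, 13.9% and 18.2%, and 10.4% and 12.1%. Among 22 partners of HSP70, 7 rose and 5 fell in OL on dpi 2, the latter near the share of all genes. By dpi 10 it was 2 up and 4 down, and by dpi 42 it was 5 up and 3 down. In total RNA 1 rose and 12 fell on dpi 2, with 16 down on dpi 10, 7 down on dpi 42 and none up at either time. The 2 with the smallest q in OL on dpi 2 were Bag1, an exchange factor of HSP70, and Stub1, the ubiquitin ligase CHIP. Bag1 went from 62.1, 64.3 and 58.4 CPM in naive OL to 105, 121 and 117 CPM on dpi 2 with no overlap (Log2FC 0.89 ± 0.08, q = 4.86e-08), and Stub1 from 91.5, 91.7 and 78.2 to 126, 158 and 156 CPM (Log2FC 0.75 ± 0.10, q = 3.86e-06). Both also had a higher OL enrichment on dpi 2 than in naive cord (Log2FC 0.60 ± 0.12, q = 0.00492 for Bag1 and Log2FC 0.71 ± 0.14, q = 0.00438 for Stub1).

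Among 10 partners of HSP90, 2 rose and none fell in OL on dpi 2, when 18.4% of all genes were higher. On dpi 10 none rose and 2 fell, and by dpi 42 a single gene rose. In total RNA 1 rose and 4 fell on dpi 2, 6 fell on dpi 10 and none passed on dpi 42. Fkbp5, a co-chaperone of steroid receptors that glucocorticoids induce, went from 11.5, 17.3 and 13.7 CPM in naive OL to 43.5, 123 and 59.8 CPM on dpi 2 (Log2FC 2.41 ± 0.38, q = 2.81e-05). Ptges3, the co-chaperone p23, rose as well (Log2FC 0.39 ± 0.14, q = 0.0360), with dpi 2 replicate 3 at the level of naive replicate 1. Of 7 listed subunits of the chaperonin TRiC, 2 rose on dpi 2 in OL, Cct3 (Log2FC 0.27 ± 0.08, q = 0.0137) and Cct2 (Log2FC 0.28 ± 0.09, q = 0.0206), and none fell, while 5 fell on dpi 10 in total RNA. Among 5 mitochondrial chaperones, 2 rose and 1 fell in OL on dpi 2: the chaperonins Hspe1, from 35.3, 32.96 and 28.6 to 76.7, 83.9 and 85.2 CPM (Log2FC 1.34 ± 0.12, q = 1.94e-08), and Hspd1, from 152, 143 and 142 to 236, 226 and 223 CPM (Log2FC 0.65 ± 0.09, q = 9.56e-06), went up without overlap. In total RNA on dpi 2 they were at 0.24 ± 0.12 (q = 0.120) and 0.02 ± 0.09 (q = 0.930).

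Of 8 other small heat shock genes, 1, 1 and 3 rose in OL on dpi 2, 10 and 42, and 4, 3 and 3 in total RNA, and none fell. The OL counts on dpi 2 and dpi 10 are near the shares of all genes that were higher (18.4% and 9.62%). The one that rose in OL on dpi 2 was Hspb7, with 0 counts in all 3 naive OL libraries and 36, 11 and 219 counts on dpi 2 (q = 0.000612). Against a floor of 3 counts over the naive group its mean CPM was at least 83.3-fold higher on dpi 2, 20.6-fold on dpi 10 (q = 0.0127) and 19.3-fold on dpi 42 (q = 0.00760). Single libraries carried these means: without the library with most counts of each group the bounds were 22.2-fold on dpi 2, 10.8-fold on dpi 10 and 6.001-fold on dpi 42, where the counts were 7, 43 and 16 on dpi 10 and 14, 50 and 0 on dpi 42. On dpi 2 and dpi 10 that library, replicate 3 and replicate 2, had the highest astrocyte sum of its group, but on dpi 42 it was replicate 2 and the highest astrocyte sum was in replicate 1. Hspb3 and Hspb9 had counts in at most 1 OL library of any group. Among 5 other heat shock factors and their regulators, Hsbp1, which binds HSF1 trimers, rose in OL at each time (Log2FC 0.79 ± 0.08, q = 1.92e-07, Log2FC 0.46 ± 0.08, q = 0.000412 and Log2FC 0.60 ± 0.08, q = 1.36e-05). It was at 199, 194 and 205 CPM in naive OL and 333, 382 and 319.6 CPM on dpi 2. Hsf2bp had 4, 4 and 0 counts in naive OL and none on dpi 2, too few to compare.

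**Figure D5:**
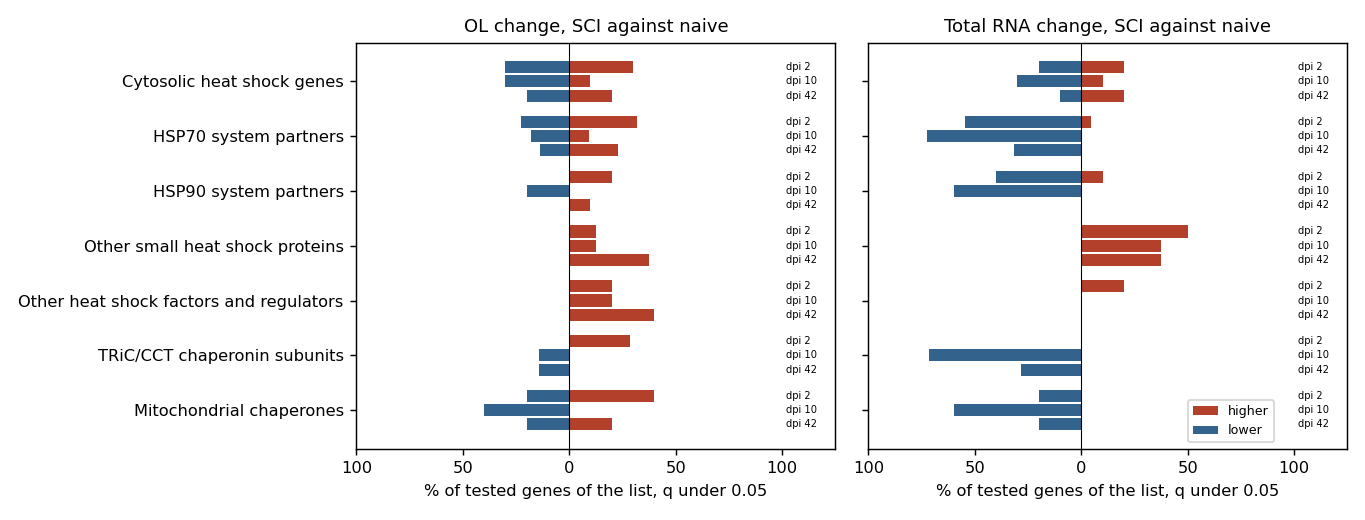
Percent of the tested genes of each chaperone list that passed q under 0.05 against naive, higher to the right of 0 and lower to the left, for dpi 2, 10 and 42 in OL and in total RNA. HSP70 partners lie mostly to the left in total RNA (12, 16 and 7 of 22 lower) and on both sides in OL.

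Genes with the most similar pattern were found by Pearson correlation of log2 CPM over the 24 libraries, which share 2 kinds of RNA, 4 times and their pools, among 13662 genes with a mean of at least 1 CPM. For Hspb1 they were Tagln (r = 0.979), Nes (0.966) and Maff (0.966), for Hspb8 Fas (0.960), Pdpn (0.950) and Sdc4 (0.947), and Bag3 had Vrk3 (0.971) and Aamp (0.968) among its nearest. The nearest gene of Hsph1 was Stip1 (0.926), the protein that joins HSP70 to HSP90, before 9330159F19Rik (0.852) and C2cd2l (0.839). That of Dnajb1 was Chordc1 (0.771), a further HSP90 partner, before Ndufaf2 (0.718) and Msl1 (0.702). Hsp90aa1 was nearest to Sympk (0.947), Scamp5 (0.944) and Ank2 (0.939), and Hspa8 to Uba1 (0.896), Nup133 (0.895) and Mprip (0.894). Hsf1 was nearest to Dclk3 (0.789), Taok3 (0.747) and Srrt (0.720). Both HSP70 genes of the pair were nearest to Banp (0.802 for Hspa1a and 0.822 for Hspa1b), then Hspa1a to Rbm48 (0.772) and Scnm1 (0.772) and Hspa1b to Ppp1r9b (0.767) and Chst12 (0.766). Within the 10 genes, r was 0.927 for Hspa8 with Hsp90aa1, 0.858 for Hspa1a with Hspa1b and 0.841 for Hspb1 with Hspb8, and Hspb1 ran against Hsp90aa1 (-0.680).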

How the data were processed

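Total RNA and immunoprecipitated OL RNA were sequenced from 12 tissue pools, giving 24 libraries in 8 groups of 3. Per the labels and the study's methods, the authors checked reads with FastQC 0.10.1, aligned them with STAR to mm10 (GRCm38.p6) and counted them per gene with HTSeq 0.10.0. The deposited table holds raw counts per Ensembl gene. The strand setting and the handling of reads that map to several genes are not given in the sources used here.

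Symbols were matched for 21939 of 21965 gene IDs. Genes with a summed count of at least 10 were kept (17167), and 3966 genes had no count. edgeR 4.0.16 in R 4.3.3 (TMM factors, quasi-likelihood F test, Benjamini-Hochberg q over all genes) was run with 1 mean for each of 8 groups for changes over time, and with the tissue pool as a block plus an OL effect for each time for OL enrichment and its difference from naive. SE is the absolute Log2FC divided by the square root of F. CPM per kb used the exon union of each gene. The code was tested on simulated data.

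OL and total RNA of a pool come from the same lysate, which pairs them. Deviations of same-pool libraries from their group means correlated at 0.0408 to 0.137 in naive cord, 0.0879 to 0.108 on dpi 2, 0.0245 to 0.0630 on dpi 10 and -0.0109 to 0.0200 on dpi 42. Between different pools they correlated at -0.105 to 0.0502, -0.0781 to -0.0184, -0.0365 to 0.0117 and -0.0280 to 0.0253 in turn. The ranges overlapped in naive cord and on dpi 42, and on dpi 42 these correlations do not show the pairing. For 2 dpi 42 libraries the group was taken from the description field, since title and description conflict. The titles of some dpi 42 libraries also number the biological samples otherwise. Pools there, as elsewhere, follow adjacent library numbers in the description. Replicate pairs differed by more than sampling noise. P-values of the changes rest on the spread between pools within groups, estimated over all groups together. Those of OL enrichment and its difference from naive rest on the spread between pools of the OL to total RNA difference.

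The 10 genes, the lists and the tests were chosen with earlier results of these data known. Named were these 10, from each other list up to 2 genes with the smallest q among those under 0.05 in the OL change on dpi 2 plus any with an absolute OL change over 2, and for each of the 10 the 3 other genes with mean CPM of at least 1 best correlated with it over 24 libraries. Some items are not reported here. Alternatives were other scalings, filters, tools, blocks and sample sets, DESeq2 1.42.0 among them.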

Additional observations from a re-analysis of the deposited data

How the results depend on the processing

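All counts in this section are of the 10 genes past q under 0.05 in edgeR unless another tool is named. The share of all genes past it in each of these fits is not reported here. A moved count can therefore not be read as particular to the 10 genes. With library sizes alone in place of TMM factors the counts were 2 for OL on dpi 10, 2 for OL on dpi 42 and 4 for OL enrichment on dpi 2, and the OL enrichment changed sign for Hsp90aa1 in naive cord (-0.0620), on dpi 2 (-0.0924) and on dpi 42 (-0.0907), for Hspa8 on dpi 2 (-0.38) and dpi 10 (-0.0920), for Hsf1 on dpi 2 (-0.52) and for Dnajb1 on dpi 10 (-0.37). That scaling moved the median OL enrichment of all genes from -0.31 to -0.82 in naive cord, -0.24 to -0.80 on dpi 2, -0.24 to -0.82 on dpi 10 and -0.24 to -0.74 on dpi 42. With only the libraries of the groups compared in the fit, the counts were 2 for OL on dpi 42, 7 for total RNA on dpi 10, 7 for total RNA on dpi 42, 0 for OL on dpi 42 against dpi 2, 4 for total RNA on dpi 10 against dpi 2, 5 for total RNA on dpi 42 against dpi 2, 8 for OL enrichment on dpi 10 and 1 for it on dpi 42. DESeq2 called 1 in differential OL enrichment on dpi 2 and 1 on dpi 42. Without the dpi 42 replicate 1 libraries, whose labels conflict, the counts were 0 for total RNA on dpi 42 against dpi 2, 5 for OL enrichment on dpi 42 and 1 for differential enrichment on dpi 2. The cause of these moves was not tested. With Hspa1a and Hspa1b summed, 1 was called in OL on dpi 42 against dpi 2, since the 2 called genes became 1 feature, which passed.

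Without the 5 OL libraries with high astrocyte sums, chosen after seeing the data, the counts were 8 for OL on dpi 10, 2 on dpi 42, 4 on dpi 10 against dpi 2 and 7 on dpi 42 against dpi 2, 4, 8 and 7 for OL enrichment on dpi 2, 10 and 42, and 5 for differential enrichment on dpi 2. There Hspb1 had an OL enrichment of -1.23 on dpi 42, from the 1 pool left at that time, whose spread is assumed to be that of the other groups. Without each library in turn, the counts ranged from 2 to 6 for OL on dpi 10, 1 to 2 for total RNA on dpi 42, 1 to 2 for OL on dpi 10 against dpi 2 and 1 to 3 on dpi 42 against dpi 2, 0 to 1 for total RNA on both dpi 10 and dpi 42 against dpi 2, 4 to 8 for OL enrichment in naive cord, 3 to 4 on dpi 10 and 1 to 5 on dpi 42, and 0 to 1 for differential enrichment on dpi 42.

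Replicate numbers did not pair libraries across time groups: deviations of same-numbered libraries correlated at -0.309 to 0.248. With the replicate number as a replicate block, 2 of 100 results changed their call (Hsph1 in OL on dpi 10, -0.72, and Hsp90aa1 in total RNA on dpi 42, -0.40, were lost). With no replicate block, 2 of 70 results did, and 1 gene, Hspb1, was called in differential enrichment on dpi 2 and on dpi 42. Both filters on low counts left the side of the threshold of all 170 results as it was. Of 48 calls, 26 held in every fit without 1 library or pool and 27 in all the other settings apart from the one chosen after seeing the data.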
